A study of Equus caballus with 13 samples.

Results

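Messenger RNA decay is run by a small set of protein complexes, and the genes that encode them are described here in horse chondrocytes, the cell type of cartilage. A list of 54 genes of deadenylation, decapping, the exosome and nonsense-mediated decay was taken by gene symbol. The selection rule used no measured value, but the list was drawn up with earlier results of these data known. Of these, 52 were listed in both deposited tables, among 11056 genes in the age table and 11249 in the sex table, and 2 (LSM5 and LSM6) were listed in neither. The study compared chondrocytes isolated from cartilage of horses (Equus caballus) in 3 groups, with 5 samples from old females, 5 from young females and 3 from young males. All were wild-type cells by their labels, cultured for 2 days and given 4-thiouridine, a uridine analogue that marks RNA made while it is present, for 4 h. The tables held no column for unlabelled cells, ages in years were not given, and all groups had been cultured, so the values describe cells in culture.

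Decay of a cytoplasmic mRNA usually begins with shortening of the poly(A) tail by the PAN2-PAN3 and CCR4-NOT complexes. The cap is then removed by DCP2 with its activators and the body is degraded from the 5′ end by XRN1, or the RNA is degraded from the 3′ end by the exosome. Nonsense-mediated decay feeds mRNAs with premature or unusual stop codons into the same steps. In cartilage, RNA turnover is best known for the short-lived messages of inflammatory and matrix-degrading genes.

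Each table gave, for every gene, 1 synthesis rate and 1 half-life per group, as estimated by the authors. Half-lives are given in hours, a unit that was not stated and was assumed from the 4 h labelling, and synthesis rates in arbitrary units. The product of both, divided by ln 2, is called the implied level here and is the RNA amount at steady state. The tables held no value per sample, no counts and no errors, so the depth is unknown, no SD or n accompanies any value, and whether a difference exceeds the spread between animals could not be tested. Differences are therefore given as log2 ratios between groups, read against the same ratios of all genes. A gene was counted as past 2-fold at an absolute log2 ratio of 1, and a lower limit of 0.5 (1.41-fold) was used beside it. The labels gave 12 batches for 13 samples, with 1 batch shared by a young female and a young male sample, so batch and group cannot be told apart. In such bulk samples, fewer cells of a type and less RNA per cell cannot be told apart either.

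All 8 chondrocyte markers checked (COL2A1, ACAN, COMP, SOX9, MATN3, COL9A1, HAPLN1 and CNMD) were listed in both tables. Of other cell types, 5 of 6 fibroblast markers were listed, 1 of 6 macrophage markers (CD14), 1 of 4 endothelial markers (VWF), 1 of 3 osteoblast markers (IBSP), and 0 of 3 for adipocytes and for skeletal muscle. The summed implied level of the chondrocyte markers had a log2 ratio of −0.15 in old and 1.30 in young male cells against young female cells. The listed fibroblast markers stood at −1.09 and 1.30. CD14 stood at 0.26 and 0.15, VWF at 0.26 and 0.04, and IBSP at 0.77 and 2.19. Such sums are led by the genes with the highest listed values. Gene by gene, 7 of 8 chondrocyte markers (not SOX9) and 4 of 5 fibroblast markers (not PDGFRA) were higher in male cells, and 2 of 8 (COMP and MATN3) and 0 of 5 in old cells. The part of these differences in the results was not tested.

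In young female cells the half-lives of the decay genes were on balance shorter than those of all genes, but not in every role. The median half-life of the decay genes was 2.93 h (quartiles 1.74 and 4.76 h), against 3.64 h over all genes of the age table. Below the median of all genes lay 35 of the 52 (67.3%). By role these were 7 of 7 decapping genes, but 5 of 9 exosome core, 5 of 9 nonsense-mediated decay and 0 of 2 poly(A)-binding genes. Values ran from 0.758 h to 18.3 h, a 24.1-fold range. Between 1 and 24 h, the range taken as resolvable with 4 h of labelling, lay 49 of the 52 (94.2%), compared with 86.7% of all genes.

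Half-life differed by role. The genes with the shortest half-lives were CNOT6L at 0.758 h, EDC3 at 0.870 h, SMG8 at 0.884 h, CNOT4 at 1.05 h and EXOSC6 at 1.17 h. CNOT6L encodes a deadenylase of CCR4-NOT, EDC3 an enhancer of decapping, SMG8 a regulator of the SMG1 kinase of nonsense-mediated decay, CNOT4 an E3 ubiquitin ligase linked to CCR4-NOT, and EXOSC6 a subunit of the exosome ring. The longest half-lives were those of PABPC1 (18.3 h) and PABPC4 (17.9 h), the cytoplasmic proteins that coat the poly(A) tail, followed by LSM3 (14.5 h), LSM4 (14.3 h) and UPF3A (12.8 h). PABPC1 lay at percentile 89.6 of all genes and CNOT6L at percentile 1.82.

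**Figure D1:**
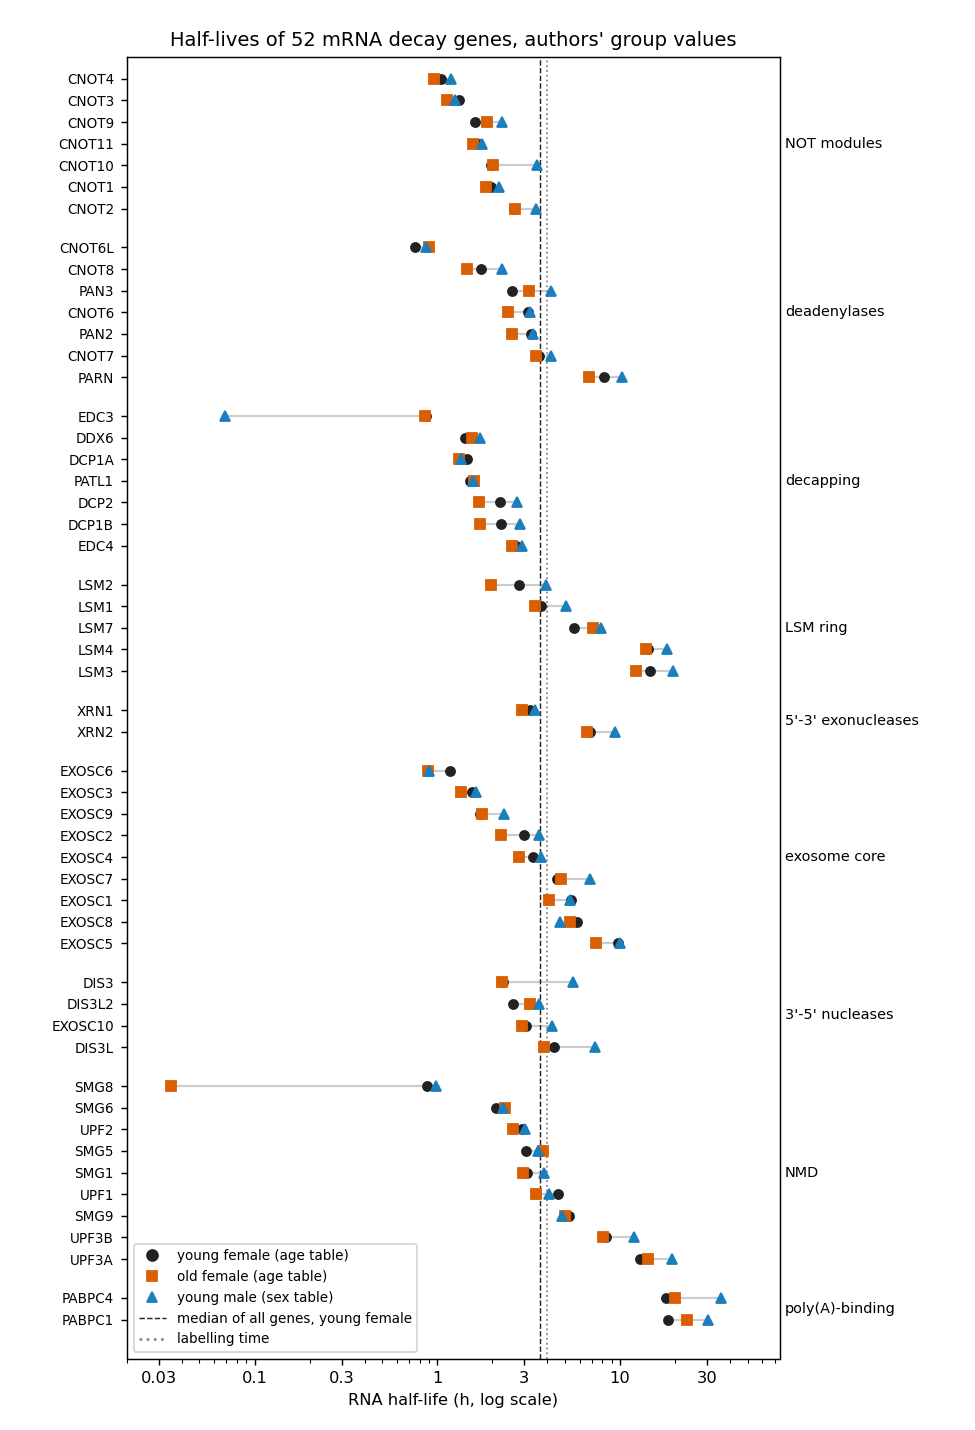
RNA half-life (h, log scale) of the 52 listed decay genes, grouped by role. Black circles are young female cells and orange squares old female cells (age table), blue triangles young male cells (sex table), each 1 authors' value without error; the dashed line marks the median of all genes in young female cells (3.64 h) and the dotted line the 4 h labelling time. All 7 decapping genes lie left of the dashed line and both poly(A)-binding genes far right of it.

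The 7 decapping genes had a median of 1.51 h and the 7 genes called CCR4-NOT scaffold and module genes here a median of 1.69 h. The latter are the scaffold, its NOT, CNOT9 and CNOT10-CNOT11 modules, and CNOT4, which is linked to the complex. All 14 were below the median of all genes. The decapping genes spanned 0.870 to 2.70 h, with DDX6, the RNA helicase that joins decapping to translational repression, at 1.42 h, PATL1, which bridges the LSM ring and the decapping enzyme, at 1.51 h, DCP2, the enzyme itself, at 2.20 h and EDC4, its scaffold, at 2.70 h. CNOT1, the scaffold on which CCR4-NOT is built, had a half-life of 1.97 h, and its partners CNOT2 and CNOT3 had 2.63 and 1.32 h.

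Other groups were slower or more mixed. The 5 listed subunits of the LSM ring, a ring that binds the 3′ end of deadenylated mRNA, had a median of 5.62 h, and the spread among them was 5.19-fold, from LSM2 at 2.80 h to LSM3. LSM2, LSM3, LSM4 and LSM7 also belong to the nuclear ring of U6 RNA, while LSM1 (3.67 h) is particular to the cytoplasmic one. The 9 exosome core genes ran from 1.17 h for EXOSC6 to 9.71 h for EXOSC5, with a median of 3.33 h, although their products are built into 1 complex. The 9 nonsense-mediated decay genes had a median of 3.11 h and ran from SMG8 to UPF3A.

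Implied levels can be followed within a gene, but the scale was not stated to be per transcript length, so no order of abundance between genes is read from them. In young female cells of the age table the values spanned 326 for LSM7 to 48749 for PABPC1 in these units.

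The same 5 young female samples entered both tables, which gives a second estimate from the same libraries. For half-life all 52 genes were within 0.1 log2 units between tables, and 34 were within 0.01. The widest gaps were those of EXOSC7 (4.501 h in the age table, 4.74 h in the sex table), EXOSC8 (5.83 and 6.07 h) and DIS3L (4.35 and 4.18 h), with log2 ratios of −0.08, −0.06 and 0.06. Across all 10974 shared genes the widest gap was 7.77 log2 units. Implied levels of the 52 genes differed by a common factor (log2 0.07), and departed from it by at most 0.00087. These repeats share their reads and contain none of the variation between animals.

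Paralogs were set beside each other in 7 sets, since their products do the same or a related job. Near-identical copies can share reads, and how such reads were assigned is not given in the sources used here. The deadenylases CNOT6 and CNOT6L, which compete for 1 place in CCR4-NOT, stood furthest apart. CNOT6 had a half-life of 3.12 h in young female, 2.45 h in old and 3.22 h in male cells, and CNOT6L one of 0.758, 0.898 and 0.864 h, so CNOT6 was longer by 4.11-, 2.73- and 3.72-fold. The CNOT6L values all lie under the range of 1 to 24 h, so these folds and the rank of this pair are less certain. The other deadenylase pair of the complex, CNOT7 and CNOT8, differed by 2.07-fold in young female cells (3.62 against 1.75 h), 2.40-fold in old (3.48 against 1.45 h) and 1.85-fold in male cells (4.19 against 2.26 h). In each group the member with the longer half-life was the same one.

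**Figure D2:**
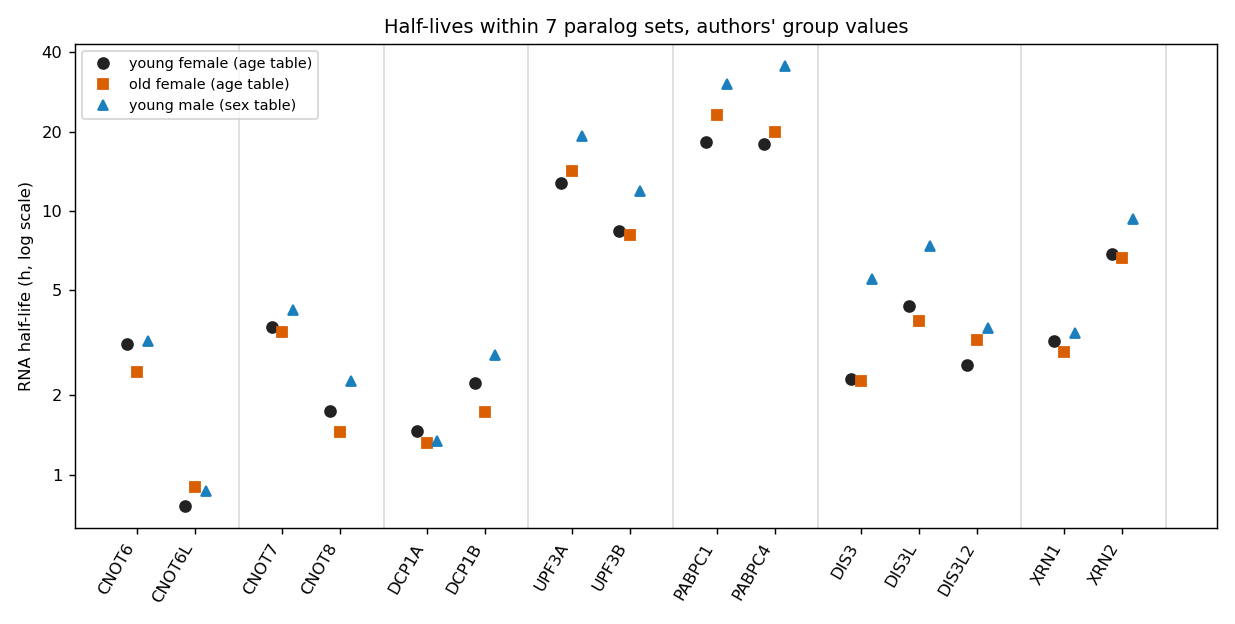
RNA half-life (h, log scale) of the genes of 7 paralog sets in young female (black circles), old female (orange squares) and young male cells (blue triangles), 1 authors' value each without error. CNOT6 lies above CNOT6L and XRN2 above XRN1 in every group, while PABPC1 and PABPC4 lie close together in young female cells (18.3 and 17.9 h).

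XRN2, the nuclear 5′-to-3′ exonuclease, had a longer half-life than cytoplasmic XRN1, at 6.87 against 3.20 h in young female, 6.61 against 2.92 h in old and 9.32 against 3.44 h in male cells. UPF3A and UPF3B, which link UPF2 to the exon junction complex, had 12.8 and 8.42 h in young female cells, 14.2 and 8.09 h in old and 19.2 and 11.9 h in male cells. The order within these pairs was the same in all groups. DCP1A and DCP1B, the DCP2 activators, had 1.46 and 2.23 h in young female cells, 1.32 and 1.72 h in old and 1.35 and 2.83 h in male cells, so their gap was 1.53-, 1.30- and 2.10-fold. PABPC1 and PABPC4 were within 1.02-fold of each other in young female cells. PABPC1 was the longer in old cells (23.2 against 19.9 h) and PABPC4 in male cells (35.4 against 30.3 h), by 1.17-fold each. Of the DIS3 ribonucleases, DIS3L had the longest half-life in every group, and DIS3 had the shortest in female cells but not in male cells.

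Old and young female cells were compared first, to ask whether age was associated with a change in the kinetics of these genes. The implied levels of the decay genes were close to those of young cells. The median log2 ratio over the 52 genes was −0.0048, with 26 higher and 26 lower. Of all genes, 50.7% were higher and 49.3% lower. The quartiles were −0.16 and 0.09, compared with −0.19 and 0.20 over all genes. The median absolute log2 ratio was 0.11 for the decay genes and 0.20 for all genes. Not one decay gene was past 2-fold in level in either direction, where 2.13% of all genes were past it upward and 1.99% downward. None reached 0.5 either, with 8.19% of all genes upward and 7.37% downward.

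The largest differences in level were small. SMG9, a partner of SMG8 on the SMG1 kinase, stood at 4837 in young and 3515 in old cells (log2 ratio −0.46), EXOSC4 of the exosome ring at 1064 and 782 (−0.44) and EDC3 at 1866 and 1415 (−0.40). CNOT2 stood at 1348 and 1689 (0.33), PATL1 at 2862 and 3377 (0.24) and PAN2, the catalytic subunit of PAN2-PAN3, at 992 and 1162 (0.23). By role, the exosome core had the lowest median (−0.17, with 7 of 9 lower, beside 49.3% of all genes). In it 2 of 9 genes, EXOSC7 (0.09) and EXOSC9 (0.07), were higher. The CCR4-NOT scaffold and module genes had a median of 0.07, with 5 of 7 higher. The poly(A)-binding genes stood at 0.19 for PABPC1 and 0.04 for PABPC4.

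Half-lives of the decay genes were on balance slightly shorter in old cells, as were those of all genes. The median log2 ratio was −0.09 over the decay genes and −0.08 over all genes, and 36 of 52 (69.2%) were shorter, compared with 63.1% of all genes. Relative to the median of all genes 26 were longer and 26 shorter. Past 2-fold there were 0 decay genes longer (1.47% of all genes) and 1 shorter (2.06%), which was SMG8. At the 0.5 limit there were 0 longer (4.47%) and 2 shorter (8.88%), SMG8 and LSM2, of which LSM2 was no longer at this limit after centring on all genes (−0.42), with 0 longer (6.03% of all genes) and 1 shorter (6.34%).

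LSM2 had a half-life of 2.80 h in young and 1.97 h in old cells (log2 ratio −0.50) and EXOSC2, of the RNA-binding cap of the exosome, 2.96 and 2.22 h (−0.42). PABPC1 had 18.3 and 23.2 h (0.34), LSM7 5.62 and 7.07 h (0.33) and DIS3L2, an exoribonuclease that acts outside the exosome, 2.60 and 3.23 h (0.32). Among exosome core genes 7 of 9 (77.8%) were shorter in old cells, beside 63.1% of all genes, and their median was −0.25. Relative to the median of all genes 7 of 9 were shorter as well, with a median of −0.16. The 2 exceptions were EXOSC7 (4.501 and 4.74 h) and EXOSC9 (1.72 and 1.75 h). The catalytic subunits EXOSC10 (3.04 and 2.90 h) and DIS3 (2.30 and 2.27 h) were within 0.07 log2 units of their young values.

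Synthesis rates in old cells had a median log2 ratio of 0.10 over the decay genes and 0.08 over all genes. Upward, 1 decay gene was past 2-fold (SMG8; 4.59% of all genes) and 3 reached 0.5 (SMG8, LSM2 and PAN2; 14.8%). Downward the counts were 0 at 2-fold (2.92%) and 0 at 0.5 (8.18%). PAN2 had a synthesis rate of 212 in young and 315 in old cells (0.57) and LSM2 of 123 and 192 (0.65). The lowest ratios were those of LSM7 (40.2 and 29.0, −0.47), the endonuclease SMG6 (853 and 633, −0.43) and SMG9 (638 and 485, −0.40). After centring on all genes PAN2 (0.49) was under the 0.5 limit, which left 2 higher (11.7% of all genes), while LSM7 (−0.55) and SMG6 (−0.51) made 2 lower (9.91%). Each of these counts is 3.85% of the decay genes, below the share of all genes. Within half-life deciles 2 were higher (LSM2 and SMG8) and 4 lower (CNOT6L, EDC3, LSM7 and SMG6; 7.69% of the decay genes). The share of all genes was not counted on that scale, so these counts are not read further.

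In LSM2 and LSM7 the ratios of half-life and synthesis rate had opposite signs, and the level ratios were 0.15 and −0.14. Opposite signs were the rule among the decay genes, in 37 of 52 (71.2%), as among all genes (70.4%). Across the 52 genes the Spearman correlation of the 2 ratios was −0.70, and −0.53 across all genes. Both ratios of a gene come from the same libraries, and genes are not independent replicates. The 2 values of a gene are also tied. Between the 2 young female estimates, EXOSC7 differed by −0.08 in half-life and 0.14 in synthesis rate, its level only by the common factor (0.07). An error in half-life can thus return in synthesis rate with the opposite sign, so opposite signs and correlations are not read further.

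SMG8 stood apart. Its half-life was listed at 0.884 h in young female, 0.0348 h in old and 0.980 h in young male cells, and its synthesis rate at 1077, 21132 and 491. The log2 ratios in old cells were −4.67 and 4.29, while the implied level was 1374 in young and 1061 in old cells (−0.37). At steady state a half-life of 0.884 h means that 95.7% of the RNA was made within the 4 h of labelling, and one of 0.0348 h that 100% was. These half-lives are thus 4.34 percentage points of new RNA apart, and both lie under the range of 1 to 24 h.

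**Figure D3:**
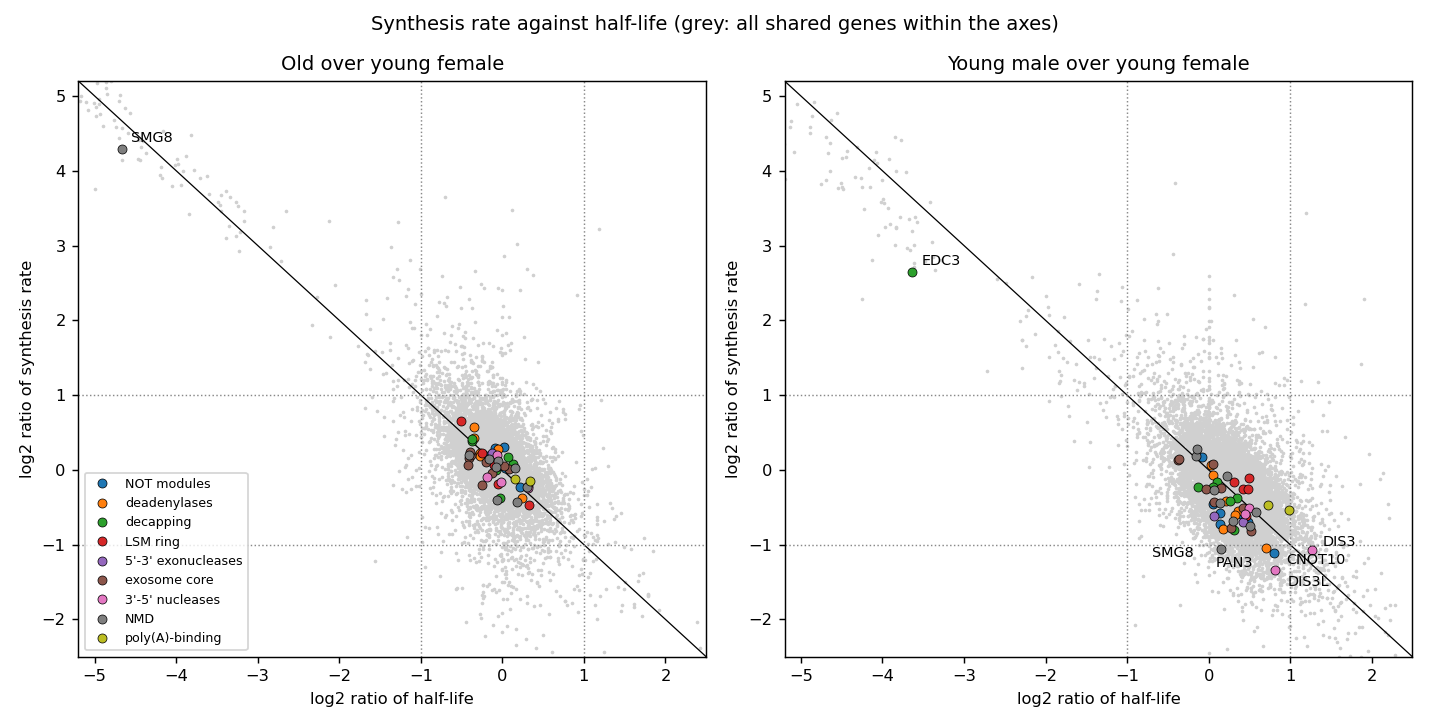
Log2 ratio of synthesis rate (vertical axis) against log2 ratio of half-life (horizontal axis) for old over young female cells (left) and young male over young female cells (right). Coloured points are the 52 decay genes by role and grey points all shared genes within the axes, 1 authors' value each without error. Dotted lines mark 2-fold and the diagonal an equal implied level in both groups. SMG8 (left, −4.67 and 4.29) and EDC3 (right, −3.64 and 2.65) lie far from the other decay genes.

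Young male and young female cells were compared next. Over all genes the median log2 ratio of half-life was 0.27, that of synthesis rate −0.28 and that of implied level 0.01, so half-lives were generally longer and synthesis rates lower. Relative to that shift, the median half-life ratio of the decay genes was not displaced, and their median synthesis and level ratios lay below those of all genes. The median implied level ratio of the decay genes was −0.20 (0.872-fold), with 38 of 52 (73.1%) lower, compared with 49.5% of all genes. No decay gene was past 2-fold in level, where 3% of all genes were past it upward and 1.61% downward. With the young female value of the age table EDC3 was past it, at −1.06. That reference moves the levels of nearly all genes by a common factor (log2 0.07), so it is no second estimate of EDC3. The share of all genes past 2-fold was not counted with it. At the 0.5 limit 0 were higher (13% of all genes) and 7 lower, or 13.5% of the decay genes beside 12% of all genes. The share of decay genes at the lower limit was thus near that of all genes. Centred on genes of like half-life, the counts at 0.5 were 1 higher (LSM2; 8.76% of all genes) and 3 lower (EDC3, SMG8 and DIS3L; 6.49%).

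The 7 genes at the lower limit as listed were EDC3, SMG8, CNOT6L, CNOT4, XRN1, DIS3L and DCP2. EDC3 had an implied level of 1782 in young female and 897 in male cells (log2 ratio −0.99), SMG8 of 1311 and 695 (−0.92) and CNOT6L of 901 and 592 (−0.61). CNOT4 had 1277 and 852 (−0.58), XRN1 2497 and 1703 (−0.55), DIS3L, the cytoplasmic exosome nuclease, 960 and 668 (−0.52), and DCP2 3300 and 2330 (−0.50). EDC3, SMG8, CNOT6L and CNOT4 also had the 4 shortest half-lives of the set in young female cells. The highest ratios were those of PABPC4 (9688 and 13213, 0.45), LSM2 (472 and 619, 0.39) and PABPC1 (46539 and 55642, 0.26).

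As listed, the roles differed in direction, but several of these directions were not kept against genes of like half-life. All 7 decapping genes had lower levels in male cells (median −0.18), but centred within half-life deciles 4 were higher and 3 lower (median 0.03). Lower as listed were also 8 of the 9 exosome core genes (−0.25; EXOSC5 stood at 0.14), 6 of the 7 CCR4-NOT scaffold and module genes (−0.32; CNOT3 at 0.10) and 6 of the 7 genes of the deadenylase subunits (−0.20; PAN2 at 0.09). XRN1 and XRN2 were lower as well, at −0.55 and −0.27. The LSM ring stood the other way, with 4 of 5 genes higher (median 0.16) and LSM1 at −0.15, but within deciles 2 were higher and 3 lower (median −0.07). Both poly(A)-binding genes were higher as listed, and 1 was higher within deciles. Within deciles 7 of the 9 exosome core genes (median −0.05), 5 of the 7 scaffold and module genes (−0.14), 4 of the 7 deadenylase genes (−0.22) and both XRN genes (−0.43) were lower. Centring sets the median of each decile to 0, so all genes are split evenly between higher and lower on this scale. With so few genes per role, these counts are not read further. Nonsense-mediated decay genes were divided, with 5 lower and 4 higher as listed, and 6 lower and 3 higher within deciles (median −0.12), where UPF3A was lower (−0.27). The 4 were SMG5, the phosphatase adaptor (5818 and 6406, 0.14), SMG9 (4617 and 5072, 0.14), the helicase UPF1 (6215 and 6341, 0.03) and UPF3A (2464 and 2501, 0.02).

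**Figure D4:**
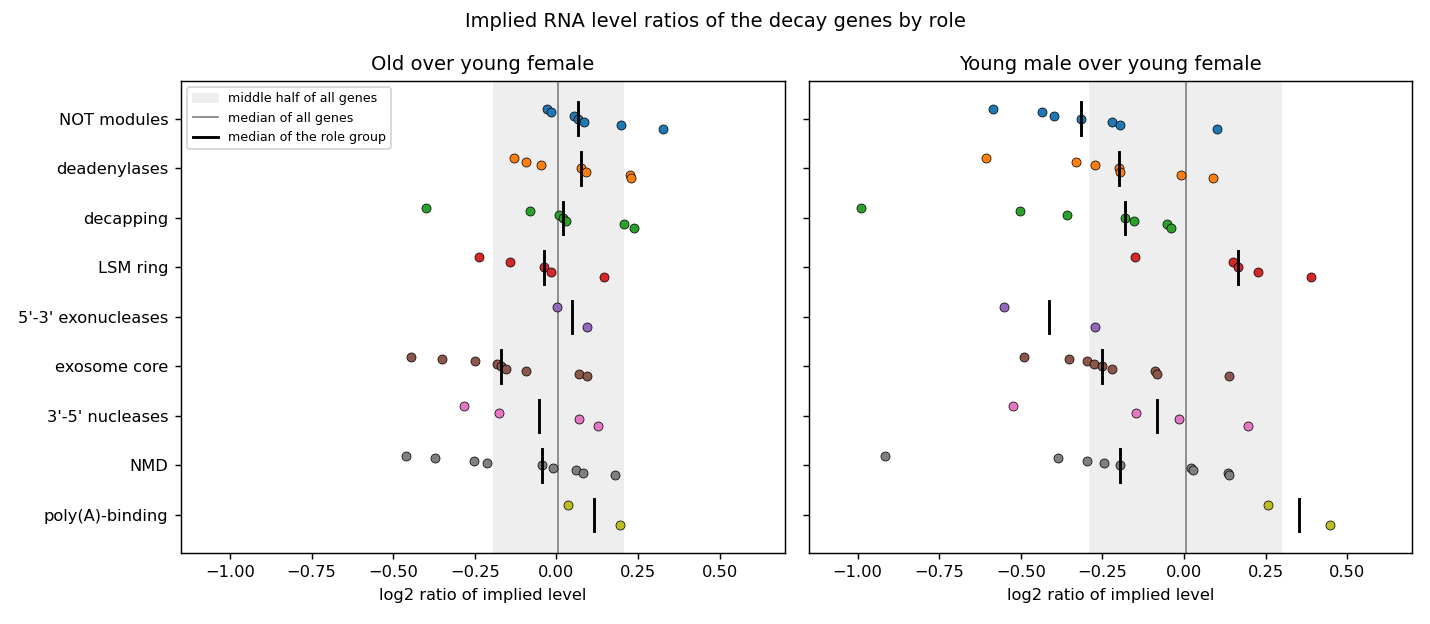
Log2 ratio of implied RNA level for the 52 decay genes by role, in old over young female cells (left) and young male over young female cells (right). Each point is 1 gene, the black bars are the medians of the role groups, the grey line the median and the grey band the quartiles of all genes (−0.19 and 0.20 left, −0.29 and 0.30 right). On the right, the decapping genes all lie below 0 and both poly(A)-binding genes above it, directions that were not kept within half-life deciles, where 4 decapping genes were higher and 1 poly(A)-binding gene was lower.

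Level ratios of all genes in this comparison went with half-life, so the decay genes were also set beside genes of like half-life in old cells, the group outside the ratio. For all shared genes the median level ratio was −0.35 under 1 h, −0.27 at 1 to 2 h, −0.10 at 2 to 4 h, 0.11 at 4 to 8 h and 0.34 at 8 h or more. For the decay genes it was −0.61 (5 genes), −0.20 (13), −0.17 (20), −0.25 (8) and 0.16 (6). The decay genes lay below all genes of the same class in 4 of the 5 classes, and above them at 1 to 2 h. After centring within deciles of half-life their median was −0.12, with 33 of 52 (63.5%) lower, on a scale that splits all genes evenly. Relative to genes of like half-life PABPC4 stood at 0.02 and PABPC1 at −0.17, so the direction of PABPC1 was not kept. In the LSM ring LSM2 stood at 0.57 and LSM7 at 0.04, while LSM1 (−0.07), LSM3 (−0.13) and LSM4 (−0.15) were lower.

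Half-lives of the decay genes in male cells had a median log2 ratio of 0.27, the same as all genes, and 44 of 52 (84.6%) were longer, compared with 77.3% of all genes. Past 2-fold, 1 was longer (5.62% of all genes) and 1 shorter (1.96%). At the 0.5 limit 10 were longer, or 19.2% of the decay genes beside 27.4% of all genes, and 1 was shorter (4.4%). Centred on the median of all genes, 0 were longer and 1 shorter past 2-fold (2.82% and 2.88% of all genes). The 0.5 limit was then reached by 4 upward (11.1%) and 3 downward (9.85%). The 4 were DIS3, PABPC4, DIS3L and CNOT10, and the 3 were EDC3, EXOSC6 and EXOSC8. Half-life ratios of all genes also went with half-life, from a median of −0.03 under 1 h to 0.46 at 8 h or more in old cells. Centred within half-life deciles, 1 decay gene was longer past 2-fold (DIS3; 2.12% of all genes) and 1 shorter (EDC3; 2.58%). The 0.5 limit was then reached by DIS3 and CNOT10 upward (8.57% of all genes) and by EDC3, EXOSC8 and SMG9 downward (8.8%), and no longer by PABPC4, DIS3L or EXOSC6.

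DIS3, the processive nuclease of the nuclear exosome, had the highest half-life ratio. Its half-life was 2.30 h in young female cells of both tables, 2.27 h in old and 5.53 h in male cells, a log2 ratio of 1.27 in male cells, or 0.996 after centring on all genes and 1.04 within deciles. Its synthesis rate was 272 in young female and 129 in male cells (−1.07) and its level 901 and 1033 (0.20). In terms of new RNA at 4 h, 70.1% in young female cells stood against 39.4% in male cells. That difference of −30.7 percentage points was the widest among the 52 genes.

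The group of DIS3, DIS3L, DIS3L2 and EXOSC10 had longer half-lives in male cells, as did 77.3% of all genes. The 4 genes also lay above the median of all genes and of their half-life decile, but not equally. DIS3 and DIS3L were at percentiles 97.1 and 90.1 of the half-life ratios of all genes, EXOSC10 and DIS3L2 at 71.8 and 67.5. Of the 7 genes of the deadenylase group, whose enzymes also act from the 3′ end, 7 were longer as listed (median 0.22), and 3 were longer and 4 shorter relative to the shift (median −0.06). The difference between these groups was not tested. DIS3L had 4.18 h in young female and 7.33 h in male cells (0.81, or 0.54 after centring and 0.49 within deciles), EXOSC10 3.03 and 4.26 h (0.49, or 0.22) and DIS3L2 2.65 and 3.61 h (0.44, or 0.17). The poly(A)-binding genes lay above the shift as well, but by less when set beside genes of like half-life. PABPC4 had 17.9 and 35.4 h (0.99, or 0.72 after centring and 0.48 within deciles) and PABPC1 18.3 and 30.3 h (0.73, or 0.45 and 0.22). Both male values lie beyond the range of 1 to 24 h. CNOT10, which with CNOT11 forms a module of CCR4-NOT, had 2.01 and 3.50 h (0.80), whereas CNOT11 had 1.69 and 1.76 h (0.06).

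At the other end, EXOSC6 had 1.17 h in young female and 0.898 h in male cells (−0.38) and EXOSC8 6.07 and 4.70 h (−0.37). EXOSC6 was at 0.893 h in old cells. Its old and male values both lie under the range of 1 to 24 h, and both ratios rest on the same young female libraries. EXOSC1 had 5.42 and 5.32 h (−0.03), UPF1 4.59 and 4.11 h (−0.16), SMG9 5.29 and 4.78 h (−0.14), DCP1A 1.47 and 1.35 h (−0.13) and CNOT3 1.32 and 1.25 h (−0.08). Within the exosome core the ratios therefore ran from −0.38 to 0.52, the latter for EXOSC7 (4.74 and 6.81 h).

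EDC3 had the lowest half-life ratio, and its values resembled those of SMG8 in old cells. Its half-life was listed at 0.856 h in young female and 0.0689 h in male cells, against 0.870 h and 0.853 h in young and old female cells of the age table. The synthesis rate was 1442 in young female and 9028 in male cells, with log2 ratios of −3.64 for half-life and 2.65 for synthesis. New RNA at 4 h was 96.1% and 100%, a gap of 3.93 percentage points. Of the 478 genes with a young female half-life of 0.5 to 1 h in the sex table, 55 (11.5%) were listed under 0.1 h in male cells, and in old cells the same held for 63 (11.5%) of 547 such genes of the age table. The same young female libraries gave a value under 0.1 h in the other table for 41 of 478 and 32 of 543 shared genes of this class. The decay genes in the class were CNOT6L, EDC3 and SMG8.

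Of the synthesis rates in male cells 44 of 52 (84.6%) were lower, compared with 71.1% of all genes. The median log2 ratio over the 52 genes was −0.46 as listed, −0.18 once centred on all genes and −0.11 within half-life deciles. Past 2-fold 1 was higher (3.78% of all genes) and 5 were lower, or 9.62% of the decay genes beside 8.37% of all genes. At the 0.5 limit 1 was higher (8.96%) and 25 were lower, or 48.1% beside 32.1%. After centring the counts past 2-fold were 1 higher (5.79% of all genes) and 1 lower (4.08%), and at 0.5 they were 2 higher (17.4%) and 8 lower, or 15.4% beside 15.5%. Within half-life deciles 1 was higher past 2-fold (EDC3; 5.04% of all genes) and 0 lower (3.63%), and at 0.5 there were 4 higher (16.3%) and 7 lower, or 13.5% beside 13.8%. The excess of lower synthesis rates at the 0.5 limit was thus not kept once the general shift was removed, while the share of decay genes at the upper limit was below that of all genes on each scale.

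The 5 genes past 2-fold downward were DIS3L (159 and 63.1, −1.33), CNOT10 (379 and 175, −1.12), DIS3 (−1.07), SMG8 (1027 and 491, −1.06) and PAN3, the RNA-binding partner of PAN2 (462 and 225, −1.04). After centring on all genes DIS3L was past 2-fold (−1.06), but within deciles it was at −0.999 and no decay gene was past 2-fold downward. The other 4 were not past it after centring on all genes, at −0.84 for CNOT10, −0.79 for DIS3, −0.78 for SMG8 and −0.76 for PAN3. PAN2, in contrast, had a synthesis rate of 200.4 in young female and 209 in male cells (0.06). Apart from EDC3, the highest ratios were those of SMG9 (605 and 735, 0.28) and UPF1 (939 and 1069, 0.19), which were 0.56 and 0.47 relative to all genes.

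In male cells 42 of the 52 genes combined a longer half-life with a lower synthesis rate, and 6 a shorter half-life with a higher one. Together these made 92.3% with opposite signs, compared with 76.2% of all genes. The Spearman correlation of the 2 ratios was −0.67 over the decay genes, −0.67 without EDC3 and SMG8, and −0.55 over all genes. A gene that follows the general shift has this combination, so the count is not read as particular to the decay genes. The 2 values of a gene are tied here as in the age comparison, so the correlations are not read further.

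The age and sex comparisons share the young female samples, so their values are set side by side without a comparison between them. For half-life the ratios, old first and male second, were −0.02 and 1.27 for DIS3, 0.04 and 0.80 for CNOT10, −0.39 and −0.38 for EXOSC6, −0.41 and −0.16 for UPF1 and 0.34 and 0.73 for PABPC1. Level ratios were −0.46 and 0.14 for SMG9, 0.33 and −0.20 for CNOT2 and −0.44 and −0.08 for EXOSC4.

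A further 54 genes of the same pathways, such as cofactors and recruiters, were taken as a second list, and 51 were listed in both tables (PELO, MPHOSPH6 and MAGOHB were not). Their median half-life in young female cells was 2.58 h. In old cells the median half-life ratio was −0.08, the median synthesis ratio 0.06 and the median level ratio −0.05, with 0 past 2-fold in either direction for each, where 1.47% to 4.59% of all genes were. In male cells the medians were 0.27, −0.48 and −0.22, compared with 0.27, −0.28 and 0.01 over all genes, and 43 of 51 (84.3%) had a lower level, compared with 49.5% of all genes. Within half-life deciles the median level ratio of the list was −0.11, with 36 of 51 (70.6%) lower, on a scale that splits all genes evenly. Past 2-fold in male cells there were 3 genes for lower synthesis (5.88% of the list beside 8.37% of all genes) and, after centring, 2 (3.92% beside 4.08%), with 0 for the other parameters and directions. Within half-life deciles 2 were past 2-fold for lower synthesis (3.92% beside 3.63%). The share was thus below that of all genes as listed, and near it on both other scales. The 3 were AGO1 (−1.37, or −1.09 after centring) and AGO2 (−1.05, or −0.77), the Argonaute proteins that carry microRNAs and recruit deadenylases, and NBAS (−1.41, or −1.13), a gene of nonsense-mediated decay and secretory transport.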

How the data were processed

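The authors deposited 2 tables of RNA kinetics, each with 4 value columns (synthesis and half-life in 2 groups), per the file headers. Per the labels' protocols, RNA was alkylated with iodoacetamide for 15 min, and poly(A)-selected RNA was made into directional libraries. The submitters' processing notes name cutadapt 4.5, STAR 2.5.3 and the build EquCab3.0. The kinetic model, annotation, gene filter and handling of replicates are not given in the sources used here. The column headed "Young" was read as young female, since the labels place only those young samples in that table. Hours were assumed from the 4 h labelling. The highest half-life (69.3) is a ceiling at a decay rate of 0.01 per unit of time, which does not fix the unit. The files held 0 columns of values per sample.

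Log2 ratios, implied levels and the share of RNA made in 4 h (at steady state) were computed within a table with Python 3.11.15 and pandas 2.3.3, with no pseudocount and no filter. The computation was tested on simulated data. Deciles were formed over all shared genes by half-life in the group outside the ratio. Named genes were those at the ends of each ranking (3 per end, 5 for baseline half-life), those past 2-fold, paralogs, and the 3 with the widest gap between tables. Further genes were named as examples of their role. Members, lists and limits were chosen with earlier results of these data known. Symbols were matched as the files give them. Gene coordinates and sequences of the files' build were not used here.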

Additional observations from a re-analysis of the deposited data

How the results depend on the processing

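No paired analysis was possible because the tables hold 1 value per group and no value per sample, and for the same reason no replicate could be left out. With no replicate spread, a median was taken as moved beyond 0.05 log2 units and a count beyond 1.5 times; of the alternatives for the medians and counts over the decay genes, 63 stayed within these limits and 28 did not. Of the single-gene ratios under both centrings and the other table's reference, which shift all genes, 282 stayed within 0.05 log2 units and 654 did not. Centred on all genes, the medians in old cells were −0.0042 for half-life and 0.015 for synthesis rate, and in male cells −0.00072 and −0.18, with 1 and 2 genes past 2-fold in male cells. With young female values taken from the respective other table, the synthesis medians were 0.17 in old and −0.53 in male cells and the level medians 0.062 and −0.26, with 1 gene, EDC3, past 2-fold in level in male cells (log2 ratio −1.06). This reference moves the levels of nearly all genes by a common factor (log2 0.07), through which EDC3 crossed the limit. Within 1 to 24 h in both groups, 0 genes were past 2-fold in old cells for half-life and 0 for synthesis rate, and 1 for half-life in male cells. At a limit of 0.5 there were 2 genes for half-life and 3 for synthesis rate in old cells, and 11, 26 and 7 for half-life, synthesis rate and level in male cells. Chosen after the data were seen were the removal of EDC3 and SMG8, which left 0 and 0 genes in old cells and 1 for half-life in male cells, and centring within half-life deciles. The latter gave medians of 0.0011 for half-life and 0.0069 for synthesis rate in old cells and 0.039, −0.11 and −0.12 for half-life, synthesis rate and level in male cells, with 1 gene past 2-fold for synthesis rate, and brought the 7 genes at a level ratio of −0.5 or less in male cells to 3. Keeping the 75% of genes with the higher mean synthesis rate, or only genes listed in both tables, moved no median or count past these limits. Half-lives far below 1 h or above 24 h are beyond what 4 h of labelling resolves.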
